A study of Mus musculus with 2 samples.

Results

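The immunoglobulin heavy-chain locus, Igh, was described by its H3K4me1 regions in pre-B cells. Its members were all called regions that overlap chromosome 12 from 114400000 to 117250000 of the mouse build mm9, an interval of 2.85 Mb. They numbered 108 of the 48130 regions called in the library. The interval was defined by position and not by any measured value, but with earlier results of these data known. The cells came from bone marrow of mice on a C57BL/6 (B6) background, aged 6 to 14 weeks and of both sexes. Their genotype was RAG1-/- with a rearranged IgM transgene, and the samples were labelled RAG-/-µ+ pre-B cells. The data were 1 library made with an H3K4me1 antibody (Abcam Ab8895) and 1 input library made without antibody, both from such cells. The input library served the authors as the control in calling regions. The labels do not give the number of mice behind each library. With 1 library per group no spread between replicates could be measured.

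H3K4me1, histone H3 monomethylated at lysine 4, marks enhancers, both active and poised, and the flanks of active promoters. Igh encodes the antibody heavy chain, and a B cell precursor assembles its variable exon by joining a D to a J segment and then a V to the DJ segment. RAG1 and RAG2 form the recombinase that makes these cuts. In cells without RAG1 the endogenous locus therefore keeps its unrearranged order, and the transgene supplies the heavy chain that lets cells reach the pre-B stage. The locus is controlled by an intronic enhancer between the J segments and the Ighm constant gene, and by the 3′ regulatory region, a cluster of enhancers beyond the Igha constant gene that acts on class switching and on expression in later B cells. Tags from the transgene and from the endogenous copy of the same sequence cannot be told apart in a list of aligned regions, and the labels do not say which segments the transgene carries.

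RefSeq's gene table for another build, GRCm38.p6, was used only for names and order. It listed 215 Igh genes and segments, made up of 8 constant genes, 4 J segments, 20 D segments and 183 V segments. Of these, 10 D segments and 63 V segments were marked as pseudogenes. From the 3′ end the constant genes ran Igha, which encodes the heavy chain of IgA, Ighe (IgE), Ighg2c, Ighg2b, Ighg1 and Ighg3 (the IgG classes), Ighd (IgD) and Ighm (IgM). The J, D and V segments followed. Among the 36 V segments nearest to the D segments, 20 belonged to the Ighv5 family and 11 to Ighv2. The 39 farthest from them held 31 of Ighv1 and 8 of Ighv8. Positions of single genes on mm9 were not used here, so no region is assigned to a gene, and the locus was divided only at the limits that define the interval. The constant end, with the 3′ regulatory region and the constant genes, ran from 114.44 to 114.67 Mb. The D-J and V part ran from there to 117.25 Mb, with the distal V segments at its far end. Distances are given from the boundary at 114.67 Mb.

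Igh carried more H3K4me1 regions than most stretches of its size. The interval had 37.9 regions per Mb, beside 17.2 on the rest of chromosome 12 and 18.8 over all chromosomes except Y. It was thus 2.21 times as dense as the rest of chromosome 12 (exact 95% counting interval 1.80 to 2.68). That interval treats regions as independent and covers counting error only. Regions covered 8.41% of the Igh interval, beside 3.68% of the rest of chromosome 12. Of 889 stretches of 2.85 Mb that tile the chromosomes, 87.0% held fewer regions than Igh and 84.5% were covered less.

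Single regions in Igh were rather short. Their median length was 1041 bases (25th and 75th percentiles 666 and 2471), beside 1404 on the rest of chromosome 12. The shortest length the caller gives, 501 bases, was shared by 19 of the 108 (17.6%), beside 14.3% of all regions in the library. Regions of at least 5000 bases numbered 9 (8.33%), beside 8.92% of all regions. Both shares lay near those of the whole list.

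The neighbouring stretches differed from each other. The 2.85 Mb before the interval, beyond the constant end, held 158 regions at 55.4 per Mb and was covered to 13.1%. The 3.47 Mb from the interval to the last region of chromosome 12, beyond the V segments, held 63 regions at 18.1 per Mb and was covered to 3.19%. The density of Igh lay between those of its neighbours. At the constant side, the last region outside the interval was 3495 bases long and the first inside was 3318. At the V side, the last inside and the first outside were both 501 bases long.

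Averaged over its length, the constant end was more densely marked than the D-J and V part. Its 230 kb held 18 regions, which is 78.3 per Mb, and the 2.58 Mb of the D-J and V part held 88, which is 34.1 per Mb. The ratio was 2.29 (exact 95% counting interval 1.30 to 3.84), and no replicate was at hand to test it. Its lower limit fell below 1 with regions of at least 1000 bases (ratio 1.67, limits 0.637 to 3.72). It also did so with regions under 2.5 kb apart joined (1.52, limits 0.698 to 2.95). In 10 equal bins of 258 kb, the D-J and V part ranged from 0 to 65.9 regions per Mb. Regions covered 26.0% of the constant end and 6.71% of the D-J and V part, a ratio of 3.87. That ratio rested on a pair of broad regions of the constant end: without the longest it was 1.93, and without the 2 longest it was 1.13. The D-J and V part kept its own longest regions in both, so the ratio could only fall. Among stretches of the same size as each, 95.9% held fewer regions than the constant end and 82.5% held fewer than the D-J and V part. These shares are not on a like scale. Of the stretches of 230 kb 42.2% held no region at all, beside 6.44% of those of 2.58 Mb.

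Regions also had a shorter median gap in the constant end, and a shorter median length, but the range given for each ratio took in 1. These ranges set the lower limit of a median against the upper limit of the other, and the reverse. If regions and gaps were independent, the ranges would therefore be wider than 95% intervals of the ratios. Where regions cluster, the ranges can be too narrow. Regions of the constant end lay a median of 2.62 kb apart, those of the D-J and V part 11.1 kb, and those of the whole library 8.87 kb, over all chromosomes except Y. In the constant end 14 of 17 gaps were no longer than 12500 bases (82.4%), and in the D-J and V part 46 of 87 (52.9%), beside 57.7% of all gaps. The ratio of median gaps was 0.236 (0.0822 to 1.44 from the 95% limits of both medians). The median region was shorter in the constant end, at 784 bases, than in the D-J and V part, at 1085, a ratio of 0.722 (0.394 to 1.86 from the limits of both medians). With regions under 2.5 kb apart joined, this order turned round, to 2613 and 1200 bases, so the shorter median of the constant end depended on how the caller divided close regions.

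**Figure D1:**
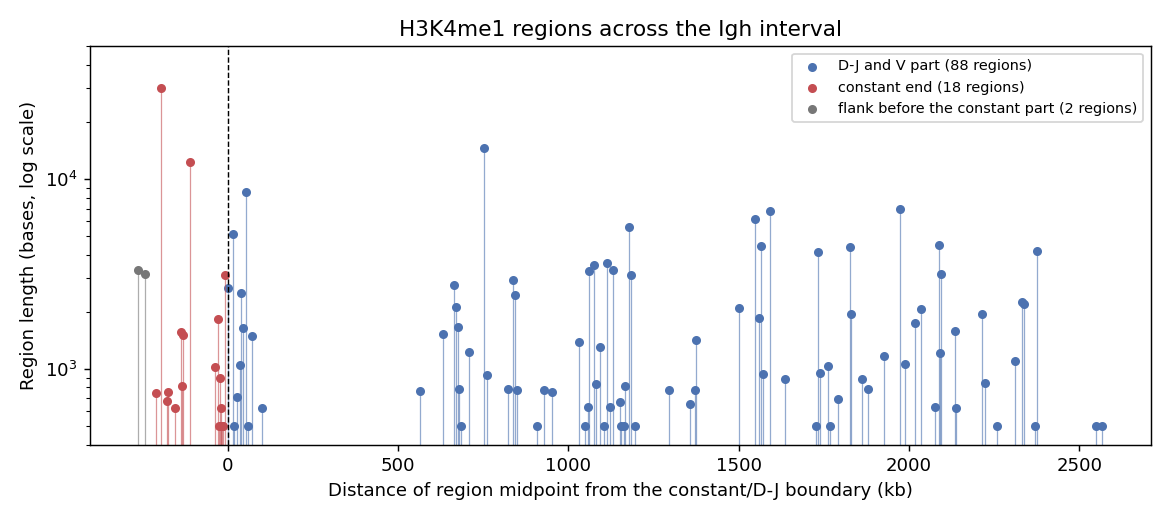
Each point is 1 H3K4me1 region, plotted by the distance of its midpoint from the boundary between the constant end and the D-J and V part (kb, horizontal axis) and by its length (bases, log axis), with colours for the segments. The 30.1 kb region of the constant end stands above all others, and no region lies between about 102 and 563 kb beyond the boundary.

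The broadest H3K4me1 region of Igh lay at the outer end of the constant part, the side on which the 3′ regulatory region lies. It ran from 114459347 to 114489450, and its 30.1 kb made it the longest region on chromosome 12 and the 30th longest of the library. It held 51.4% of the bases in the 18 regions of the constant end. A region of 749 bases (114457898 to 114458646) lay 700 bases before it. Regions of 678 bases (114491874 to 114492551) and 756 bases (114495176 to 114495931) lay after it. Joined over gaps of up to 12500 bases, these 4 regions formed a domain of 38.0 kb of which 84.9% was covered. Outside the constant part, before this domain, the flank of 40 kb at the start of the interval held 2 regions of 3318 and 3150 bases.

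A second marked stretch lay inside the array of constant genes. After a single region of 627 bases (114515822 to 114516448), 4 regions formed a domain of 32.4 kb that was covered to 49.9%. They were 1563 bases long (114531072 to 114532634), 811 bases (114534103 to 114534913), 1508 bases (114538648 to 114540155) and 12291 bases (114551175 to 114563465). The last was the second longest of the constant end and ranked 623rd in the library. The 2 broad regions together held 72.4% of the bases in the regions of the constant end, and both were over 10000 bases long, a length reached by 2.15% of all regions. Behind them followed 66.9 kb without a region, the longest gap of the constant end.

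The last 40 kb before the boundary, on the Ighm side of the constant genes, held 9 regions, none of them broad. Their median length was 627 bases, beside 811 for the other 9 regions of the constant end, of which 5 were under 1000 bases. They held all 4 regions of 501 bases in the constant end. In order, they were 1025 bases (114630331 to 114631355), 1824 bases (114640577 to 114642400), 501 bases (114644172 to 114644672) and 894 bases (114645530 to 114646423) long. Then came 501 bases (114648260 to 114648760), 627 bases (114649467 to 114650093), 501 bases (114653431 to 114653931) and 501 bases (114655035 to 114655535). The ninth, of 3121 bases (114659607 to 114662727), was the longest of this group and lay nearest to the boundary. The 9 regions farther from the boundary covered 49.1 kb, and these 9 covered 9.50 kb.

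Regions lay on both sides of the boundary, and the D-J side was densely marked too. The first region beyond it was 2678 bases long (114668741 to 114671418) and spans 114.67 Mb itself, with its midpoint 0.079 kb beyond. The first 100 kb beyond the boundary held 10 regions, which is 100 per Mb, above the 78.3 per Mb of the constant end. It was covered to 23.5%, close to the 26.0% of the constant end. Every gap between these 10 regions was under 12500 bases. The longest were 8566 bases (114717870 to 114726435) and 5139 bases (114682716 to 114687854). Together with the 9 regions before the boundary they formed 1 domain of 19 regions over 112.0 kb, from 114630331 to 114742327, of which 30.6% was covered. With gaps of up to 5 kb only, the same 19 regions fell into 7 domains of at most 8 regions. At the wider gap, domains with at least 19 regions numbered 52 of 20377 in the library (0.255%).

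**Figure D2:**
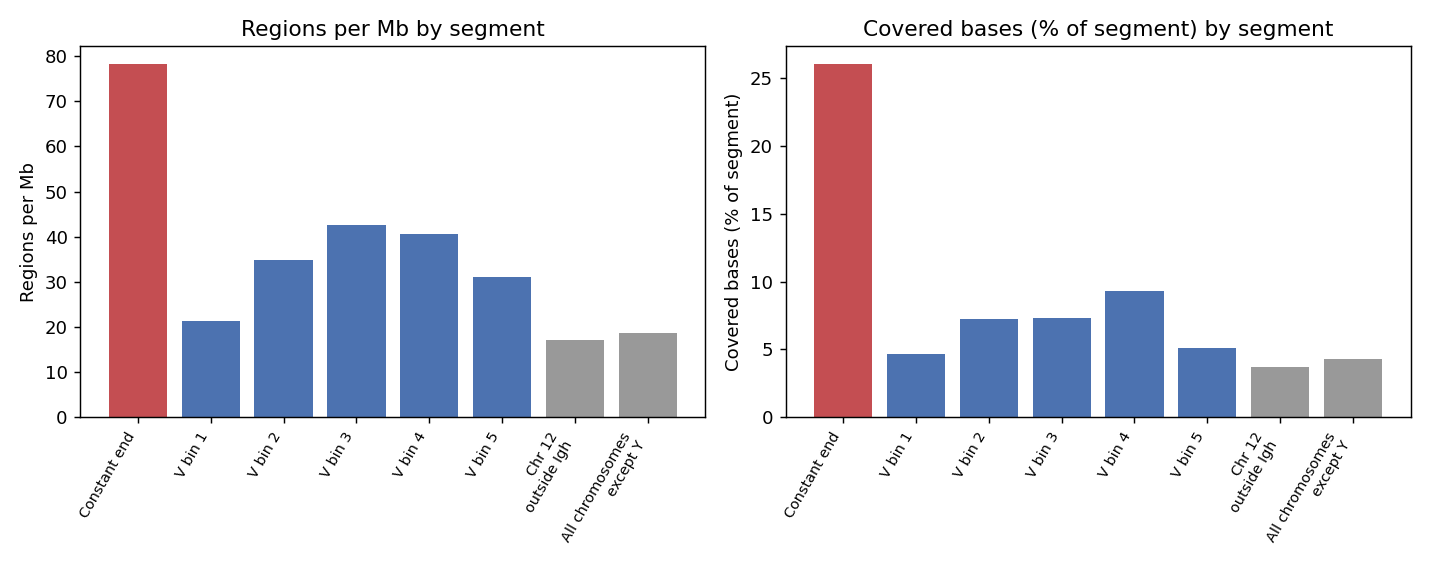
Bars give regions per Mb (left) and the share of bases covered by regions (right, in percent) for the constant end, for 5 equal bins of 516 kb of the D-J and V part counted from the boundary, for chromosome 12 outside Igh and for all chromosomes except Y. Among the bars the constant end is highest in both panels, at 78.3 per Mb and 26.0%, and bin 1 is the lowest of the 5 bins. Bin 1 averages the first 100 kb beyond the boundary, which alone had 100 regions per Mb, with most of the 460.9 kb region-free stretch.

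Next to the D-J side lay the longest stretch of Igh without a called H3K4me1 region. After an isolated region of 626 bases (114771112 to 114771737), no region was called from 114771738 to 115232667, which is 460.9 kb. Only 1.80% of the 48108 gaps on all chromosomes except Y were longer (864 gaps). In the gene order above, this is the side on which the Ighv5 and Ighv2 families lie. Which V segments fall in the stretch was not analysed, and neither was how many of its bases single reads can be aligned to. The next longest stretches were 170.8 kb near the distal limit (117048586 to 117219427) and 124.0 kb in the middle of the V segments (116045462 to 116169422). Gaps over 100 kb numbered 3 of the 107 in Igh, beside 7.6% of all gaps.

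Beyond that stretch, marked regions were found as far as the distal V segments, at a density above that of the rest of chromosome 12. In 5 equal bins of 516 kb from the boundary, the numbers of regions were 11, 18, 22, 21 and 16. The first bin's 11 regions all lay within 102 kb of the boundary. Bin 4 was covered most, at 9.27%, and bin 1 least, at 4.68%. Each of the 5 bins was above the 17.2 regions per Mb and the 3.68% covered of chromosome 12 outside Igh. This did not hold with 10 equal bins of 258 kb. Of those, bin 2 held no region and bin 6 was covered to 3.04%. The V part beyond the first 100 kb, taken alone, had 78 regions at 31.5 per Mb, and 78.9% of stretches of its size held fewer. Without the longest region-free stretch, the whole D-J and V part had 41.5 regions per Mb.

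The 5 longest regions of the D-J and V part were scattered along it. The longest, of 14611 bases (115413543 to 115428153), lay 751 kb beyond the boundary and ranked 358th in the library. It was the only region of the D-J and V part over 10000 bases. The D-J region of 8566 bases named above came next. It was followed by 6980 bases (116640413 to 116647392), 6761 bases (116259017 to 116265777) and 6179 bases (116215890 to 116222068), all over 1500 kb beyond the boundary. At the distal limit, the last 2 regions were of 501 bases each (117219428 to 117219928 and 117238141 to 117238641), with 170.8 kb between them and the rest.

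**Figure D3:**
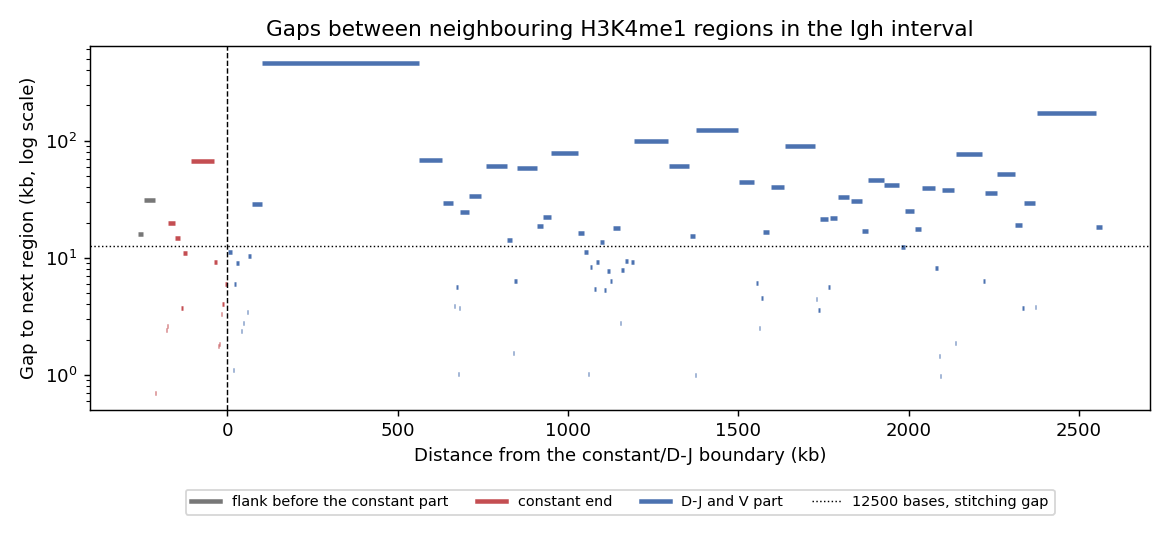
Each horizontal bar is 1 gap between neighbouring H3K4me1 regions, drawn over its extent from the boundary (kb, horizontal axis) at a height equal to its length (kb, log axis), coloured by the segment of the region before it. The dotted line marks the 12500 bases used to join regions into domains; the 460.9 kb stretch beside the D-J side is the longest bar, and most gaps around the boundary lie below the line.

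Domains of Igh held from 1 to 19 regions. Joining at 12500 bases gave 47 domains in Igh, of which 27 held a single region (49.2% of all domains in the library did so). Domains of 5 or more regions numbered 4 (8.51%), beside 11.3% of all domains in the library. Domains of 3 or more, whose share in the library was not counted, numbered 11. Of these, 2 lay in the constant end, 1 was the 19-region domain across the boundary and 8 lay farther into the V part. A run of 3 neighbouring domains between 1047 and 1195 kb beyond the boundary held 17 regions. They had 6 regions (115717377 to 115762583), 4 regions (115776115 to 115803510) and 7 regions (115821378 to 115865044), covered to between 22.3 and 29.4%. The others had 5 regions (115331853 to 115354028), 3 regions (115506081 to 115520141), 4 regions (116215890 to 116242460), 3 regions (116396422 to 116410096) and 4 regions (116746855 to 116766931). Except for the domain of 4 regions at 116215890, which was covered to 50.5%, each of these was covered to 47.4% or less, beside 84.9% for the domain that holds the 30.1 kb region.

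The list carries no signal value per region, but its order was not arbitrary, and Igh regions were set beside it. This comparison was chosen after seeing the data. Longer regions stood nearer the top (Spearman rank correlation of place and length -0.973 over 48130 regions of 1 library, which are not independent). Among regions of 501 bases, where length is fixed, the place followed the number that the caller put in the region's name, with rank correlations of 0.906 to 0.968 on 20 chromosomes. The header names a score and tag counts per region, and the files do not state that the list is ordered by one of them. To take length out, each Igh region was set beside all regions within 10% of its length, and the share of these that the list gives later was taken.

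By their medians, distal V regions stood early in the list for their length, and those of the nearer V segments late. In bins 4 and 5 the median share listed later was 92.7% (21 regions) and 91.6% (16 regions). It was 74.8% in bin 1 (11 regions, all near the boundary), 12.8% in bin 2 (18 regions), 37.8% in bin 3 (22 regions) and 38.2% in the constant end (18 regions), beside 52.6% on chromosome 12 outside Igh. Single regions spread widely, from 2.51 to 99.97% in bin 4 and from 13.2 to 99.98% in bin 5. Shares below 50% occurred in 16 regions of bin 2, 15 of bin 3, 6 of bin 4 and 2 of bin 5. Shares of at least 95% occurred in 21 of the 108 Igh regions, beside 4.57% of 1969 regions on chromosome 12 outside Igh. Bin 4 held 9 of these, bin 5 held 7, the D-J side 3, bin 3 held 1 and the constant end 1. No test of these differences was possible with 1 library. How reads from repeated V sequences were aligned is not stated, and its part in these values was not tested.

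Several of the regions that stood highest for their length lay among the distal V segments. A region of 1222 bases (116761541 to 116762762) stood at place 9113, ahead of 99.95% of 4079 regions of like length. Regions of 888 bases (116532086 to 116532973) and 2243 bases (117002279 to 117004521) stood ahead of 99.97% and 99.98% of theirs. The longest region of the constant end and that of the D-J and V part stood low. The 30.1 kb region of the constant end was listed after all 16 regions of like length, at place 116 of the whole list, and the 14.6 kb region of the V part stood ahead of 2.43% of 247. These 5 regions were chosen after their values were seen.

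**Figure D4:**
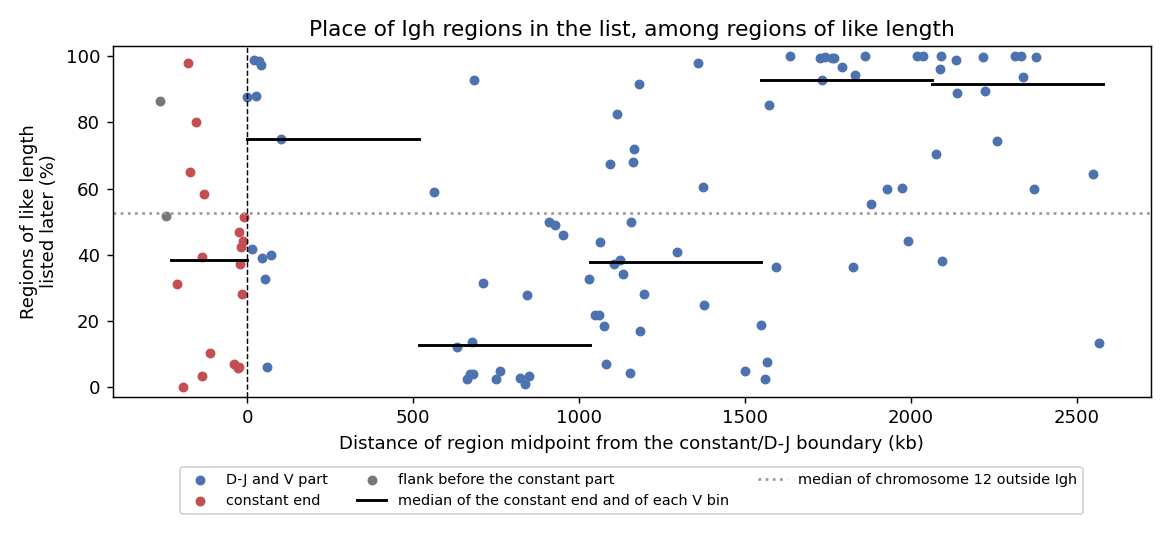
Each point is 1 Igh region, plotted by its distance from the boundary (kb, horizontal axis) and by the share of regions within 10% of its length that come later in the list (percent, vertical axis). Black lines are the medians of the constant end (38.2%) and of the 5 bins of the D-J and V part, and the dotted line is the median of chromosome 12 outside Igh (52.6%); bins 4 and 5 lie above it and bins 2 and 3 below.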

How the data were processed

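The submitters' processing notes name Bowtie 0.12.9, HOMER 4.7 and mm9. findPeaks was run in histone style, per the file headers, on 50945360 H3K4me1 tags against the input tags: windows of 500 bases with at least 26 tags, 4-fold over input, stitched into regions of variable length. The deposited score is 1 for every region and was not used. The deposited positions (other columns) gave all counts, lengths and gaps, and are printed counting from 1. Beyond them, only the order of the list and the numbers in the region names were used, where stated. The depth of the input library and how multiply aligned reads were treated are not given in the sources used here.

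Regions were assigned to segments by midpoint, and covered bases were clipped to segments. Density ratios have exact conditional binomial intervals at 95%, and limits of medians are binomial order limits at the same level. The intervals of density ratios were run on simulated counts drawn as independent. That run checks the computation only and cannot show how the intervals behave where regions cluster. No p-value is given, since each group had 1 library. Tiles of each segment's size started at the first region of each chromosome and left out Igh and chromosome Y. The place of each Igh region in the list was compared with that of regions within 10% of its length. Named were all regions of the constant end; in the D-J and V part the 5 longest, the first and last, and domains of 3 or more regions; and the 3 longest region-free stretches. The interval, limits and lists were chosen with earlier results of these data known. Alternatives covered lengths, joining, the boundary, bins and the stitching gap. Python 3.11.15, numpy 2.4.6, pandas 2.3.3, scipy 1.17.1 and matplotlib 3.10.9 were used.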

Additional observations from a re-analysis of the deposited data

How the results depend on the processing

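The constant end stayed denser than the D-J and V part under all 8 alternatives run (ratio 1.52 to 2.79, main value 2.29), but the lower counting limit fell below 1 with regions of at least 1000 bases (1.67, limits 0.637 to 3.72) and with regions under 2.5 kb apart joined (1.52, limits 0.698 to 2.95). The ratio of covered bases was 3.66 to 4.31 under 7 alternatives. It was 1.93 without the longest region of the constant end and 1.13 without the 2 longest, both chosen after seeing the data, as was the density ratio of 1.89 without the longest region-free stretch. The median gap stayed shorter in the constant end (ratio 0.184 to 0.682 over 7 alternatives, main value 0.236). The ratio of median lengths was 0.722 and turned to 2.18 with regions under 2.5 kb apart joined. The density of Igh over the rest of chromosome 12 was 1.75 for regions of at least 1000 bases (main value 2.21). Domains numbered 71 at a gap of 5 kb and 29 at 25 kb (main value 47), by construction. Regions in the first bin over the last came to 0.688 with 5 bins and turned to 1.83 with 10. The first bin held 11 regions in both, and the last held 16 and then 6. With a length tolerance of 5% in place of 10%, 22 Igh regions in place of 21 stood ahead of at least 95% of regions of like length. Segment medians rest on 18 and 88 regions, and depth per region was not used. No paired analysis was possible because each group had 1 sample.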

Other observations

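The caller's names close with a number, which the comparisons above use only for regions of 501 bases. On chromosome 12 these numbers had a Spearman rank correlation of 0.041 with position and of -0.250 with length over all regions. In order of number, a run was ended wherever position fell, so any numbering divides into runs. The 2077 regions of chromosome 12 made 72 runs, the last of which spanned 1518 numbers. Of the 108 Igh regions, 13 had a number among the lowest 5% on chromosome 12, and 12 of these lay in bins 4 and 5 of the D-J and V part. The lowest was 415, of the region from 116761541 to 116762762. The numbers were looked at after seeing the data, and what they count is not stated in the files.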
